A study of Mus musculus with 9 samples.

Results

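A set of 9 genes that mark the medium spiny neurons of the striatum were followed through 9 RNA sequencing libraries of mouse brain after intracerebral hemorrhage (ICH). The genes were Drd1, Tac1, Pdyn, Drd2, Adora2a, Penk, Ppp1r1b, Rgs9 and Foxp1. They were taken from the deposited table by gene symbol, 9 of 55401 genes. All 9 passed the filter on low values in every comparison.

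Medium spiny neurons are the GABAergic projection neurons that make up most of the striatum, the input nucleus of the basal ganglia. Those of the direct pathway carry the D1 dopamine receptor (Drd1) and make substance P and dynorphin from Tac1 and Pdyn, while those of the indirect pathway carry the D2 dopamine receptor (Drd2) and an adenosine receptor (Adora2a) and make enkephalins from Penk. Both classes use DARPP-32 (Ppp1r1b), a phosphatase inhibitor switched by dopamine through protein kinase A, and Rgs9, which shortens G protein signals. The transcription factor Foxp1 is found in both classes and also in other cells of the brain and blood.

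All animals were wildtype mice, which the methods of the study describe as adult males of a C57BL strain. ICH was made by injecting the animal's own whole blood into the right basal ganglia, and the sham operation was a needle insertion without blood. The libraries were 3 of ICH mice treated with Laminaria, 3 of ICH mice given the vehicle of that treatment (called ICH here) and 3 of sham mice. The labels give day 3 for the ICH and sham libraries and days 4, 5 and 6 for Laminaria libraries 1, 2 and 3, so treatment and day cannot be told apart, and they do not say what the Laminaria preparation was. The tissue was labelled basal ganglia, and the methods describe it as lying around the hematoma. Whether the libraries of a group are different mice is not stated, and the p-values therefore reflect library-to-library spread, which may be technical.

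Each library held 51307799 to 74649716 counts, and small counts clustered near multiples of 3.78 to 3.84, so that 1 count may not stand for 1 fragment. The members rested on 1851 counts (Foxp1 in ICH 2) to 94653 counts (Ppp1r1b) per library. Levels are given in FPKM, counts scaled to gene length and library size as the authors deposited them. Differences between groups are log2 fold changes from edgeR's quasi-likelihood test with Benjamini-Hochberg adjustment over all genes tested, and a gene is said to have risen or fallen at an adjusted p under 0.05. In ICH against sham this test called 7.42% of 16414 genes higher and 3.16% lower. Without sham 1, ICH 2 or ICH 3 it called 0 genes (3696 to 4127 at an unadjusted p under 0.05). The calls were 1218 higher and 519 lower, and 1005 higher and 1141 lower with limma on log2(TPM + 1).

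In every library the 9 genes were measured well above the filter. Per kilobase, Penk was the most abundant member in sham libraries, at 563 ± 97.3 FPKM (SD, n = 3), followed by Ppp1r1b at 340 ± 130 FPKM. Drd2 stood at 64.7 ± 8.49 FPKM, Adora2a at 49.7 ± 4.89, Rgs9 at 44.5 ± 8.03, Drd1 at 33.6 ± 7.56, Tac1 at 33.1 ± 6.55 and Pdyn at 26.4 ± 5.40 FPKM in the same libraries. Foxp1 was the least abundant at 5.08 ± 3.42 FPKM. Neighbours in this order overlapped between the 3 sham libraries except Ppp1r1b and Drd2, Drd2 and Adora2a, and Pdyn and Foxp1.

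**Figure D1:**
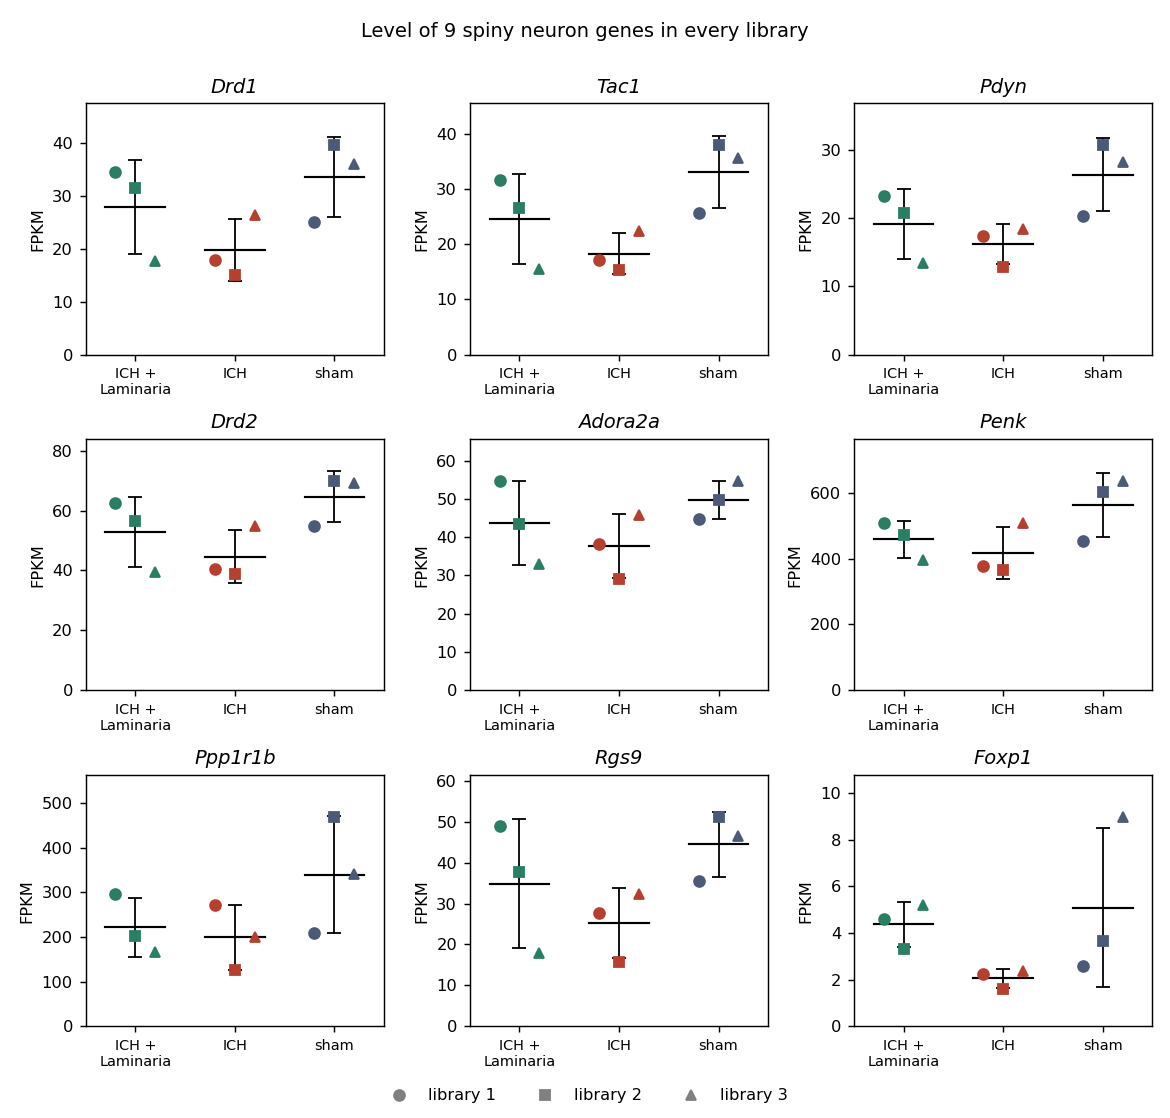
Level of each gene in FPKM (vertical axis, from 0) in the 3 Laminaria-treated ICH, 3 ICH and 3 sham libraries, with 1 point per library and a bar and whiskers for the mean ± SD of 3. ICH 2 was the lowest of all 9 libraries for every gene, and sham 1 was the lowest sham library for every gene.

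In ICH against sham all 9 members had lower means, with log2 fold changes of -1.34 to -0.44 and a median of -0.80, against a median of 0.01 over all genes tested. Tac1 fell, as did 3.16% of the 16414 genes tested, and the other 8 members did not pass the test. DESeq2 called 6 members lower (Drd1, Tac1, Pdyn, Drd2, Rgs9 and Foxp1), and edgeR with all 9 libraries in 1 fit called 0 (Tac1 at an adjusted p of 0.0764). Of all 16414 genes tested, DESeq2 called 1496 lower and the fit of all 9 libraries 317. In these bulk samples fewer spiny neurons, less RNA per neuron, more RNA of other cells and the region cut out cannot be told apart. At an unadjusted p under 0.05, 8 of the 9 were lower, as were 12.3% of all genes tested. For 5 of the 9 (Tac1, Pdyn, Drd2, Rgs9 and Foxp1) the highest ICH library lay below the lowest sham library, as it did for 13.2% of all genes tested. In all genes tested 48.6% of log2 fold changes were negative.

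Of the direct pathway genes, Tac1, the precursor gene of substance P and neurokinin A, lies at chr6:7554879-7562977 on the + strand (GRCm38). It had 17.2, 15.3 and 22.4 FPKM in ICH libraries 1, 2 and 3, against 25.7, 38.0 and 35.6 FPKM in sham libraries 1, 2 and 3. The groups did not overlap, and ICH 3 came closest to sham 1. Tac1 fell to 55.3% of the sham mean, with a log2 fold change of -0.89 ± 0.19 (SE) and an edgeR adjusted p of 0.0372. Leaving out any 1 of the 6 libraries ended the call, with adjusted p of 0.0608 to 0.119 and log2 fold changes of -1.09 to -0.80.

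The coding sequence of Tac1 holds 2 tachykinin ends. They are shown because Tac1 is the member that fell, with capitals marking the 5 codons shared in pattern by substance P, the first, and neurokinin A, the second.
Tac1 tachykinin end 1: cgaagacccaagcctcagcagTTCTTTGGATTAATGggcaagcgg
Tac1 tachykinin end 2: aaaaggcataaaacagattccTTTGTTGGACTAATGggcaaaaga

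Drd1, the D1 dopamine receptor gene (chr13:54051183-54055705, - strand), had 18.0, 15.0 and 26.4 FPKM in ICH libraries, against 25.1, 39.6 and 36.1 FPKM in sham libraries. The groups overlapped because ICH 3 was above sham 1. The log2 fold change was -0.80 ± 0.25, with an edgeR adjusted p of 0.085. Pdyn, the dynorphin precursor gene (chr2:129686565-129699833, - strand), had 17.3, 12.8 and 18.4 FPKM in ICH libraries, against 20.3, 30.7 and 28.2 FPKM in sham libraries. These groups did not overlap, and the log2 fold change of -0.74 ± 0.20 had an edgeR adjusted p of 0.0579.

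The indirect pathway genes had smaller differences. Drd2 (chr9:49340627-49408177, + strand) had 40.4, 38.9 and 54.7 FPKM in ICH libraries, against 54.9, 69.8 and 69.3 FPKM in sham libraries. The groups met without overlapping, at ICH 3 and sham 1, and the log2 fold change was -0.57 ± 0.16 with an edgeR adjusted p of 0.0684. Adora2a (chr10:75316877-75334784, + strand) had 38.3, 28.9 and 45.7 FPKM in ICH libraries, against 44.8, 49.7 and 54.6 FPKM in sham libraries. Only ICH 3 reached the range of the sham libraries, and the log2 fold change was -0.44 ± 0.17 with an edgeR adjusted p of 0.148.

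Penk, the enkephalin precursor gene (chr4:4133531-4138819, - strand), had 376, 367 and 509 FPKM in ICH libraries, against 452, 601 and 635 FPKM in sham libraries. ICH 3 lay above sham 1 here too, and the log2 fold change was -0.47 ± 0.18 with an edgeR adjusted p of 0.139. The opposite strand of Penk carries A830012C17Rik, which was measured at 0.505 to 1.84 FPKM. No source gives the strand setting of the counting, so reads of such a pair cannot be told apart.

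The precursor genes of the opioid peptides share a 5-codon core, which is shown to set the Penk and Pdyn readouts side by side. The reference coding sequence of Penk holds 7 such cores and that of Pdyn holds 3, and capitals mark the core. The first Penk core ends in the methionine codon and core 6 in a leucine codon, and the Pdyn cores begin neoendorphin, dynorphin A and dynorphin B.
Penk core 1: aagaagTACGGAGGCTTCATGaaacggtac
Penk core 6: aagaggTATGGGGGCTTCCTGaagcgcttt
Pdyn core 1: aaacgcTATGGCGGCTTTTTGcgcaaatac
Pdyn core 2: aaacgcTATGGGGGCTTCCTGcggcgcatt
Pdyn core 3: aagcgcTATGGTGGTTTCCTGcggcgtcag

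Among the genes of both classes, Rgs9 (chr11:109225355-109298129, - strand) had 27.6, 15.7 and 32.3 FPKM in ICH libraries, against 35.6, 51.2 and 46.6 FPKM in sham libraries. The groups did not overlap, and the log2 fold change was -0.86 ± 0.27 with an edgeR adjusted p of 0.0921. Ppp1r1b (chr11:98348404-98357796, + strand) had 272, 127 and 200 FPKM in ICH libraries, against 209, 469 and 342 FPKM in sham libraries. ICH 1 was above sham 1, the spread within each group was wide, and the log2 fold change of -0.80 ± 0.36 had an edgeR adjusted p of 0.196. The gene 1700003D09Rik overlaps Ppp1r1b on the opposite strand and had 2.98 to 7.76 FPKM.

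Foxp1 (chr6:98925338-99521162, - strand) had 2.24, 1.58 and 2.35 FPKM in ICH libraries, against 2.60, 3.67 and 8.98 FPKM in sham libraries. The groups did not overlap, and sham 3 stood far above the other sham libraries. The log2 fold change was -1.34 ± 0.45 with an edgeR adjusted p of 0.107, and it was -0.65 without sham 3. Foxp1 has 31 annotated transcripts in GENCODE, and the single length per gene behind the FPKM values does not separate them.

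**Figure D2:**
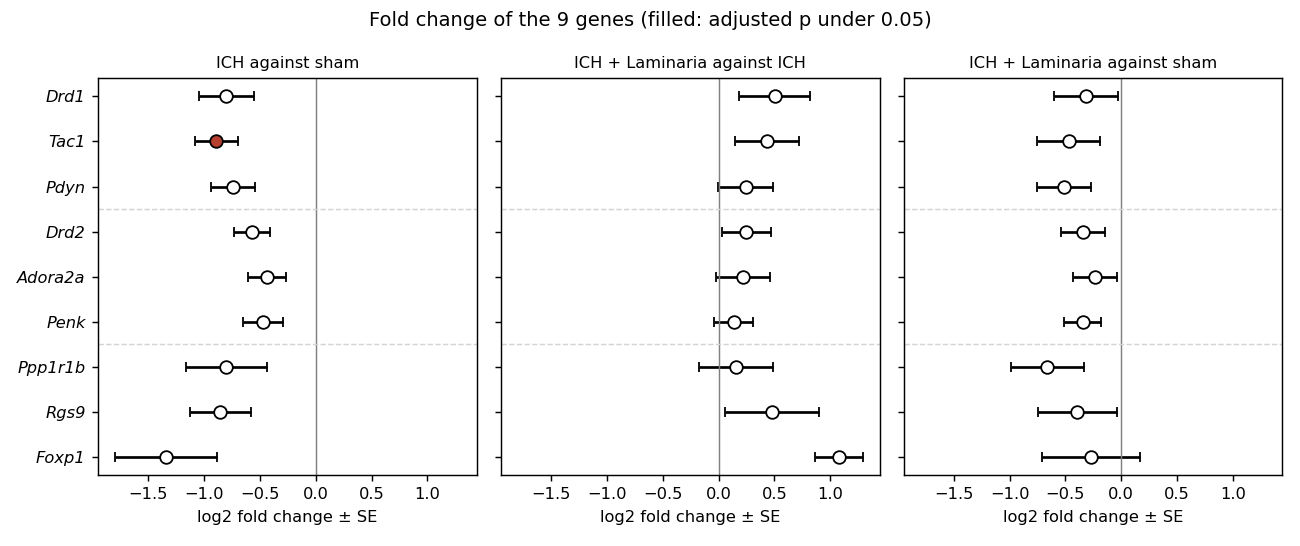
Log2 fold change (horizontal axis) ± SE of each gene in ICH against sham, Laminaria-treated ICH against ICH, and Laminaria-treated ICH against sham, with dashed lines between direct pathway genes, indirect pathway genes and genes of both classes. All 9 points lie below 0 in both comparisons with sham and above 0 in Laminaria-treated ICH against ICH, and the filled point marks Tac1, which alone had an adjusted p under 0.05.

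The balance of the pathways was described by ratios of FPKM within a library, with no test. Drd1 to Drd2 was 0.445, 0.387 and 0.482 in ICH libraries, against 0.457, 0.566 and 0.521 in sham libraries, with ICH 3 above sham 1. Tac1 to Penk was 0.0458, 0.0417 and 0.0440 in ICH libraries, against 0.0567, 0.0632 and 0.0561 in sham libraries. All 3 ICH libraries lay below all 3 sham libraries in this ratio. They did so for Tac1 itself too, whose values the ratio contains. Pdyn to Penk overlapped between the groups, with means of 0.0391 ± 0.00610 in ICH and 0.0468 ± 0.00371 in sham (SD, n = 3 each).

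Genes of neurons in general were lower in the same libraries. Of 12 pan-neuronal genes all 12 had negative log2 fold changes in ICH against sham, with a median of -0.40, and 1 fell. This was Rbfox3, which encodes the nuclear marker NeuN (log2 fold change -0.48, edgeR adjusted p 0.0368). The neurofilament genes Nefm and Nefl had log2 fold changes of -0.66 and -0.62 and the synaptic vesicle and fusion genes Syt1 and Snap25 -0.54 and -0.51, with edgeR adjusted p of 0.0592 to 0.102. Their part in the members' differences was not tested.

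Each member was therefore also divided by the geometric mean of the 12 pan-neuronal genes of its library. In this ratio ICH minus sham was -0.38 for Drd1, -0.45 for Tac1 and -0.30 for Pdyn on the log2 scale. It was -0.14 for Drd2, -0.02 for Adora2a and -0.03 for Penk. Ppp1r1b had a difference of -0.36, Rgs9 of -0.46 and Foxp1 of -0.72. The ICH and sham libraries overlapped in this ratio for all 9 genes. The median over the members was -0.36, and it was -0.17 without sham 2, -0.18 without ICH 2 and -0.61 without sham 1.

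**Figure D3:**
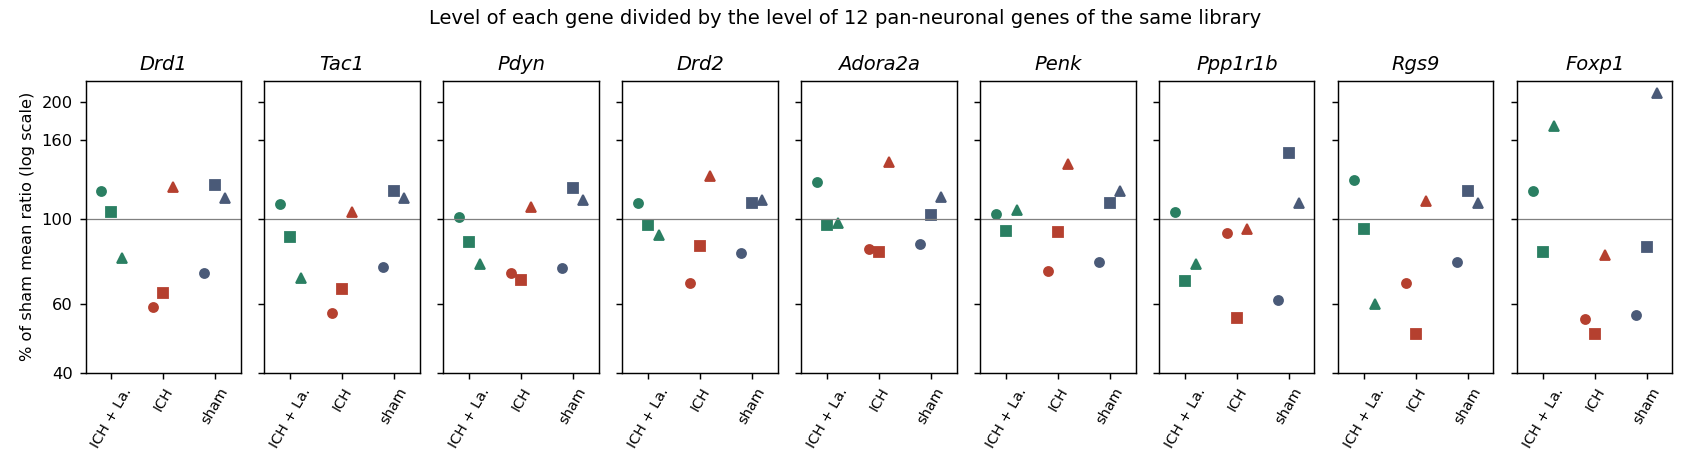
Each gene's FPKM divided by the geometric mean of 12 pan-neuronal genes of the same library, as a percentage of the mean sham ratio (vertical axis, log scale), with circles, squares and triangles for libraries 1, 2 and 3 of Laminaria-treated ICH (ICH + La.), ICH and sham. The ICH and sham points overlap for every gene. The points lie on both sides of 100% in each group for every gene but Ppp1r1b and Foxp1, whose ICH points all lie below it.

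The other listed genes of spiny neurons had the same sign as the members in all but 2 of 31 cases. Of 21 signalling genes tested, 4 fell and none rose in ICH against sham, and 20 log2 fold changes were negative (median -0.60). Actn2, an actin crosslinker of dendritic spines, had 10.7, 9.72 and 13.5 FPKM in ICH libraries, against 17.5, 25.1 and 23.5 FPKM in sham libraries. All 3 ICH libraries lay below the sham libraries, with a log2 fold change of -1.0 ± 0.18 and an edgeR adjusted p of 0.0259. Scn4b, a sodium channel beta subunit, fell by 0.83 on the log2 scale, Rasgrp2, an exchange factor of the small G protein Rap1, by 0.75 and Ptpn5, the striatal-enriched phosphatase STEP, by 0.57 (edgeR adjusted p 0.0372 to 0.0461). Slc35d3, a transporter gene, had a log2 fold change of -0.86 with an edgeR adjusted p of 0.138.

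Of 10 transcription factor genes of spiny neurons 2 fell, none rose and 9 log2 fold changes were negative (median -0.46). Rxrg, a retinoid X receptor, had 19.9, 15.5 and 26.0 FPKM in ICH libraries, against 31.0, 39.1 and 44.5 FPKM in sham libraries, and its log2 fold change was -0.94 ± 0.21 (edgeR adjusted p 0.042). The homeobox gene Six3 fell by 0.45 on the log2 scale, with an edgeR adjusted p of 0.0372. Rarb, a retinoic acid receptor, Isl1, a factor of direct pathway and cholinergic neurons, and Bcl11b, which encodes CTIP2, had log2 fold changes of -0.69, -0.57 and -0.49 and did not pass the test (edgeR adjusted p 0.174 to 0.332). Taking both lists, 6 of 31 genes fell in the fit of 6 libraries, and without any 1 of sham 1, sham 2, sham 3, ICH 2 or ICH 3 none did, while 3 fell without ICH 1.

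On the receptor and peptide side 13 genes were listed and 10 were tested, of which 3 fell and none rose, and the median was -0.18 on the log2 scale. Oprd1, the delta opioid receptor that enkephalins act on, had 1.42, 2.07 and 2.18 FPKM in ICH libraries, against 3.33, 3.51 and 3.69 FPKM in sham libraries. The groups were well apart, and the log2 fold change was -0.93 ± 0.18 (edgeR adjusted p 0.0307). The convertases that cut the peptide precursors, Pcsk1 and Pcsk2, fell by 0.74 and 0.57 on the log2 scale (edgeR adjusted p 0.0289 and 0.0491). Tacr1, the receptor of substance P, had a log2 fold change of -0.46 with an edgeR adjusted p of 0.132.

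Around DARPP-32, 1 of 15 kinase A and phosphatase genes fell and none rose, and the median difference was -0.25 on the log2 scale. The gene was Ppp3r1, the regulatory subunit of calcineurin (log2 fold change -0.49, edgeR adjusted p 0.0382). Its catalytic partners Ppp3cb and Ppp3ca had log2 fold changes of -0.72 and -0.42, and the kinase A catalytic gene Prkacb -0.49, none past the test (edgeR adjusted p 0.0781 to 0.529).

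Of the other neurons of the striatum, 8 of 9 listed interneuron genes were tested and 1 fell (median log2 fold change -0.23). This was Nos1, the neuronal nitric oxide synthase (log2 fold change -0.71, edgeR adjusted p 0.0406), while Pvalb, Chat and Sst had log2 fold changes of -0.47, -0.33 and -0.32 with edgeR adjusted p of 0.182 to 0.323. Gad1, which makes GABA in spiny neurons and interneurons alike, had 50.4, 46.6 and 42.6 FPKM in ICH libraries, against 68.4, 70.0 and 66.6 FPKM in sham libraries. Here sham 1 was level with the other sham libraries, unlike in the 9 members, and the log2 fold change was -0.59 ± 0.09 (edgeR adjusted p 0.0226). It was the 1 of 4 GABAergic genes that fell.

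**Figure D4:**
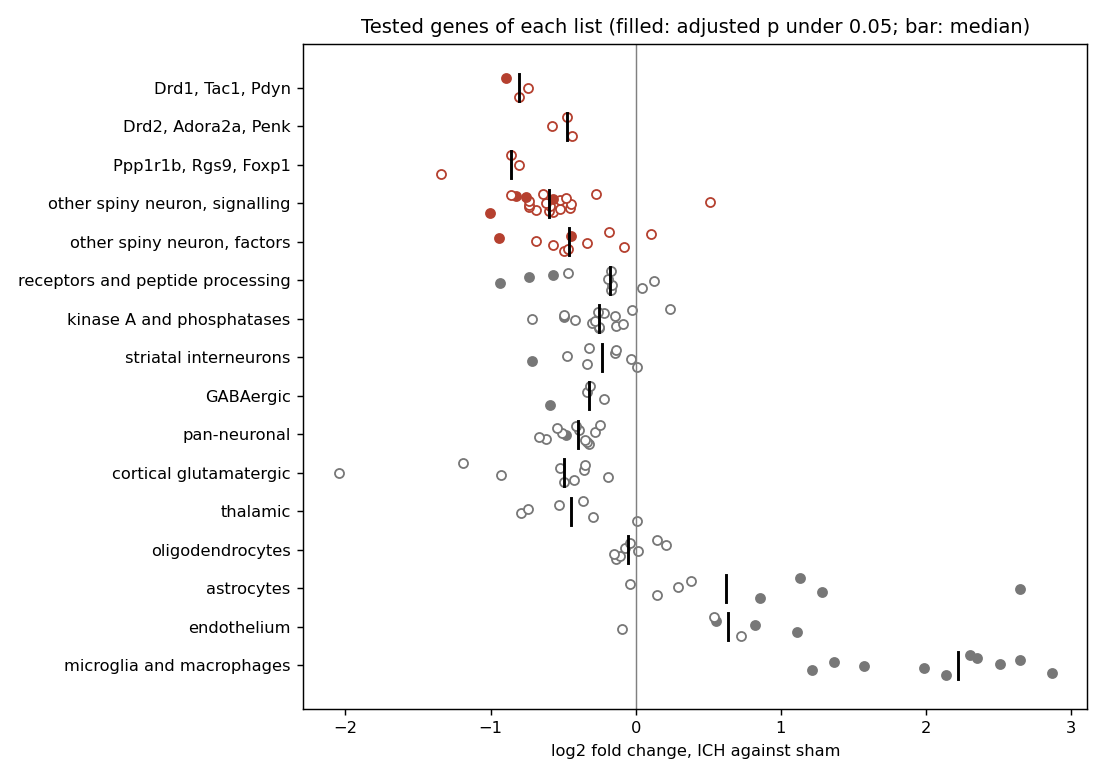
Log2 fold change in ICH against sham (horizontal axis) of the tested genes of each list (rows), with 1 point per gene, filled where the adjusted p was under 0.05, and a bar for the median. The medians of the 3 member groups are -0.80 (Drd1, Tac1, Pdyn), -0.47 (Drd2, Adora2a, Penk) and -0.86 (Ppp1r1b, Rgs9, Foxp1). Those of other neuron lists are -0.49 (cortical glutamatergic), -0.44 (thalamic), -0.40 (pan-neuronal), -0.325 (GABAergic) and -0.23 (striatal interneurons), and that of oligodendrocytes is -0.06.

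Levels of cell type markers differed between single libraries as well as between groups, and cell numbers were not measured. Summed over 10 genes, microglia and macrophage markers had 361 to 764 FPKM in Laminaria-treated ICH, 421 to 851 FPKM in ICH and 117 to 207 FPKM in sham. Summed over 8 genes, astrocyte markers had 891 to 1505 FPKM in Laminaria-treated ICH, 1002 to 1542 FPKM in ICH and 555 to 678 FPKM in sham. Red blood cell genes, summed over 5, had 28.4 to 88.8 FPKM in Laminaria-treated ICH, 31.9 to 169 FPKM in ICH and 14.1 to 18.8 FPKM in sham. ICH 2, the lowest of the 9 libraries in FPKM for every member, was the highest in red blood cell genes, whose geometric mean stood 3.29 log2 units above the sham mean, and it stood 2.53 above it in microglia and macrophage markers and 1.07 in astrocyte markers. Sham 1, the lowest sham library for all 9 members, had 9.82 FPKM of the dopamine transporter gene Slc6a3 and 11.6 FPKM of Th, markers of midbrain dopamine neurons, against 0.106 to 0.114 and 2.55 to 4.27 FPKM in shams 2 and 3. Cortical glutamatergic markers were 0.75 log2 units above the sham mean in sham 2, the highest sham library for 6 members, and 0.81 below it in ICH 2. In sham 3 they stood at -0.64 on this scale, while all 9 members were above their sham mean. Laminaria 1 stood at 1.26 in dopamine neuron genes and 2.56 in red blood cell genes, with the 9 members at a median of 95.6% of the sham mean. In dopamine neuron genes Laminaria 3 and ICH 1 stood at 1.56 and 0.864, with the members at medians of 52.7% and 62.4%. Laminaria 2, ICH 2 and ICH 3 stood at 0.102, -0.185 and -0.706, with the members at 84.0%, 46.2% and 72.7%. Ttr, the main transcript of the choroid plexus, had 53.1 to 1707 FPKM in Laminaria-treated ICH, 1307 to 3541 FPKM in ICH and 64.8 to 892 FPKM in sham. The part of the region cut out and of these cells in the members' differences was not tested. Without sham 1 the median log2 fold change of the members in ICH against sham was -0.97, without sham 2 it was -0.64 and without ICH 2 it was -0.62, all 9 negative in each.

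**Figure D5:**
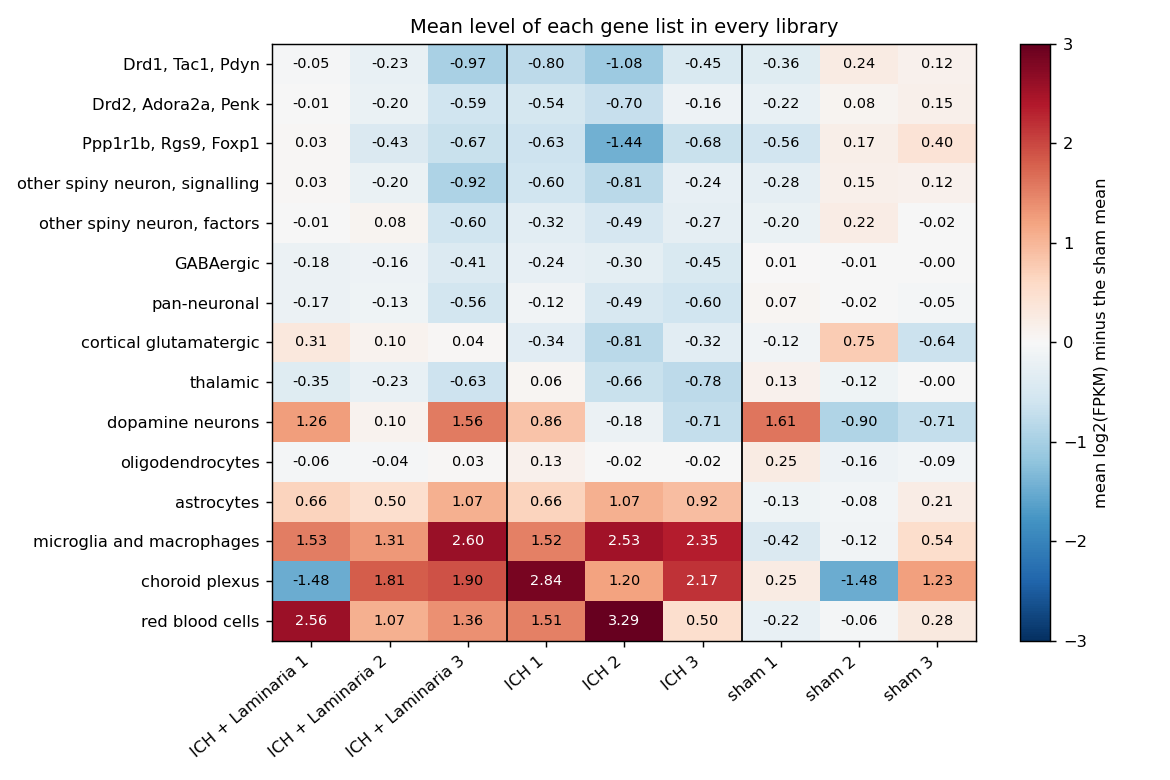
Mean log2(FPKM) of each gene list (rows) in each library (columns) minus its mean over the 3 sham libraries, in log2 units, red above and blue below. The direct pathway genes stand at -1.08 in ICH 2 and -0.97 in Laminaria library 3, and the dopamine neuron genes at 1.61 in sham 1.

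Laminaria-treated ICH was compared with ICH to see how the treated libraries stood against those given vehicle. All 9 members had positive log2 fold changes, of 0.14 to 1.08 with a median of 0.25, and none passed the test, which called 0.0180% of 16654 genes in either direction. At an unadjusted p under 0.05 there was 1 member, Foxp1, and 560 genes in all. Ppp1r1b, with 0.16, was negative without Laminaria 1 and without ICH 2. Since treatment and day cannot be told apart, these values belong to both.

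The 3 Laminaria libraries were unlike each other. Drd1 had 34.6, 31.4 and 17.7 FPKM in Laminaria libraries 1, 2 and 3 (days 4, 5 and 6), against 18.0, 15.0 and 26.4 FPKM in ICH libraries, and its log2 fold change was 0.50 ± 0.32 (edgeR adjusted p 0.951). Laminaria 3 lay within the range of the ICH libraries, and the other two lay above it. Tac1 repeated this order, with 31.6, 26.6 and 15.6 FPKM in Laminaria libraries, against 17.2, 15.3 and 22.4 FPKM in ICH libraries, and a log2 fold change of 0.43 ± 0.29 (edgeR adjusted p 0.951). Laminaria 3 was the lowest library of its group for 8 of 9 members, and the exception was Foxp1.

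Pdyn had 23.3, 20.7 and 13.5 FPKM in Laminaria libraries 1, 2 and 3, a log2 fold change of 0.25 against ICH. Drd2 had 62.4, 56.6 and 39.6 FPKM (log2 fold change 0.25), and Adora2a 54.6, 43.6 and 32.9 FPKM (0.22 on the same scale). Penk, with 507, 473 and 396 FPKM, had the smallest difference from ICH at a log2 fold change of 0.14. Each of the 4 genes overlapped with the ICH libraries.

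Rgs9 had 49.0, 37.6 and 18.0 FPKM in Laminaria libraries, against 27.6, 15.7 and 32.3 FPKM in ICH libraries, with a log2 fold change of 0.48 ± 0.42 (edgeR adjusted p 0.951). Ppp1r1b had 296, 203 and 167 FPKM in Laminaria libraries and overlapped with ICH. Foxp1 had 4.60, 3.31 and 5.22 FPKM in Laminaria libraries, against 2.24, 1.58 and 2.35 FPKM in ICH libraries. It was the 1 member of 9 whose groups did not overlap, as for 4.87% of all genes tested in the same direction, with a log2 fold change of 1.08 ± 0.21 and an edgeR adjusted p of 0.938.

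As a median over the 9 genes, Laminaria libraries 1, 2 and 3 stood at 95.6%, 84.0% and 52.7% of the sham mean, ICH libraries 1, 2 and 3 at 62.4%, 46.2% and 72.7%, and sham libraries 1, 2 and 3 at 77.5%, 115% and 108%. Laminaria 1 and 2 were above every ICH library and above sham 1, and Laminaria 3 was between ICH 2 and ICH 1. With 1 library a day, a course over days and a difference between libraries cannot be told apart. Laminaria 3 was also the highest of its group in the microglia and macrophage list, at 2.60 log2 units above the sham mean, and the lowest in pan-neuronal genes, at -0.56. Without Laminaria 3 the median log2 fold change of the members against ICH was 0.45, and without Laminaria 1 it was 0.10.

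Laminaria-treated ICH against sham used the same treated libraries and the same sham libraries, so it shares samples with both comparisons above. All 9 members had negative log2 fold changes, of -0.66 (Ppp1r1b) to -0.24 (Adora2a) with a median of -0.35, and none passed the test, which called 0.0183% of 16405 genes in either direction. At an unadjusted p under 0.05 there were 0 members and 2944 genes in all. DESeq2 called no member, and 998 genes higher and 314 lower in all. No member had all 3 Laminaria libraries below the sham libraries, as 9.10% of all genes tested did. Tac1 had a log2 fold change of -0.47, Pdyn of -0.51, Drd1 of -0.31 and Drd2 of -0.34. Foxp1, at -0.27, was at 0.42 without sham 3. The median of the members was -0.22 without Laminaria 3 and -0.53 without sham 1.

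Divided by the pan-neuronal genes, the members stood in Laminaria-treated ICH at a median of -0.02 log2 units from sham, from -0.29 for Ppp1r1b to 0.25 for Foxp1. Pdyn stood at -0.19, Tac1 at -0.18, Rgs9 at -0.16, Drd2 at -0.02, Drd1 at -0.01, Penk at 0.00 and Adora2a at 0.08, and all 9 overlapped with sham. Drd1 to Drd2 was 0.518 ± 0.0625 in Laminaria-treated ICH, 0.438 ± 0.0477 in ICH and 0.515 ± 0.0549 in sham (SD, n = 3 each). Tac1 to Penk was 0.0527 ± 0.0119 in Laminaria-treated ICH, 0.0438 ± 0.00204 in ICH and 0.0587 ± 0.00394 in sham.

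The genes most like Drd1, Drd2 and Ppp1r1b over the 9 libraries were found among 16518 genes as those with the smallest root mean square difference between centred log2 profiles. For Drd1 these included Tac1 (0.0982), Mn1 (0.0991), Inka2 (0.115) and Ankrd33b (0.116), against a median of 0.556 over all genes. For Drd2 the nearest genes were Jcad (0.0495), Rasd2 (0.0593), Kctd1 (0.0600), Kif17 (0.0631) and Hpca (0.0654), with a median of 0.421. Ppp1r1b had no near neighbour of that kind, its closest being Gm38077 (0.231), Cacna1c (0.237), Gm6556 (0.239), Pdyn (0.240) and Gm28294 (0.243). All of these profiles come from the same 9 libraries, and the likeness is a description of them.

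RefSeq promoter sequences (GRCm38.p6) were found for 6 of the 9 members, as 10 windows of 250 bases before a start. Adora2a, Penk and Ppp1r1b had none. Each was searched on both strands for TGACG, the core of the element bound by the cyclic AMP response factor, since dopamine and adenosine receptors of spiny neurons act on cyclic AMP, and for GGGCGG, the GC box. TGACG was found in 2 of the 10 windows (1 of Tac1 and 1 of Foxp1) and in 17.8% of 32851 promoters, a share near that of the windows, and GGGCGG in 6 of the 10 windows and 32.7% of promoters. The bases outside the annotated gene are shown for Tac1, the member that fell, and for the Drd1 and Drd2 receptors of the 2 classes. They are Tac1 at chr6:7554811-7554878 (+ strand), Drd1 at chr13:54055706-54055908 (- strand) and Drd2 at chr9:49340153-49340402 (+ strand), with capitals on TGACG or GGGCGG or their reverse complements.
Tac1 promoter: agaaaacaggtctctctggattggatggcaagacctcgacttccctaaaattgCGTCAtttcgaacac
Drd1 promoter: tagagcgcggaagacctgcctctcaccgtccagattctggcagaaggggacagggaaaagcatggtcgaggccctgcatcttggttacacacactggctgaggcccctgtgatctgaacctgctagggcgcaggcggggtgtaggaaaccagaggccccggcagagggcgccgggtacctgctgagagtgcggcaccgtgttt
Drd2 promoter: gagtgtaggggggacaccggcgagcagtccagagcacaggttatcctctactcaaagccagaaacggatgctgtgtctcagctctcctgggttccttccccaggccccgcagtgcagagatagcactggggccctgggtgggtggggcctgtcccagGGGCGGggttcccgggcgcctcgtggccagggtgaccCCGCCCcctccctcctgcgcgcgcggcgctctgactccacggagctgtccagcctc
The printed bases of Drd1 hold neither motif, which says only that these letters are not in that stretch. The searched window of Tac1 also held GGGCGG, but not wholly within the 68 bases printed, as 182 bases inside the annotated gene were left out. A match is a description of letters, and binding was not measured.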

How the data were processed

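Gene expression in 9 libraries of mouse basal ganglia was taken from the table of 55401 genes deposited by the authors, which gives counts and FPKM for every library. The submitters' processing notes name cutadapt 1.9, FastQC 0.10.1, HISAT2 2.0.4, StringTie 1.3.4 and a rat genome build, whereas the identifiers and coordinates are mouse GRCm38. How reads were counted, and whether by strand, is not given in the sources used here. Deposited FPKM values of 0.0001 stand for a count of 0 and were set to 0. Counts were compared in edgeR 4.0.16 (R 4.3.3; TMM scaling, no covariate, quasi-likelihood test), with the 6 libraries of each comparison fitted separately and genes kept at a mean of at least 0.5 FPKM over them. Levels, ratios and figures were made in Python 3.11.15.

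The members and the 16 other gene lists were chosen with earlier results of these data known. All 9 members are named, with up to 4 genes of a list by size of log2 fold change in ICH against sham and, for Drd1, Drd2 and Ppp1r1b, the 5 nearest genes by profile, of which 1 is not reported here. Outside this rule, Six3, Ptpn5, Rbfox3, Pde10a and Sp9 were chosen after their values were seen. The edgeR step was also run on simulated counts with known changes, drawn independently for each library. The outcome is not given here, and such counts do not bear on how the calls depended on single libraries. Alternatives were no filter or edgeR's own, DESeq2 size factors, upper quartile scaling, DESeq2 1.42.0, limma 3.58.1 on log2(FPKM + 1), log2(FPKM + 0.1) and log2(TPM + 1), all libraries in 1 fit, a replicate block, counts divided by their step, GABAergic genes as divisor, and leaving out each library. The count of other spiny neuron genes under these was added after the data were seen.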

Additional observations from a re-analysis of the deposited data

How the results depend on the processing

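The direction of all 9 members against sham was negative in every setting tried, except Foxp1 in Laminaria-treated ICH, which was -0.59 to 0.42 with 1 library left out and 0.42 without sham 3. Ppp1r1b in Laminaria-treated ICH against ICH was -0.12 to 0.45 with 1 library left out, at -0.089 without ICH 2 and -0.12 without Laminaria 1. How many genes were called depended on the tool, and the cause was not tested. In ICH against sham the fit gave 1218 higher, 519 lower, 1 member and 6 other spiny neuron genes. DESeq2 gave 2051 higher, 1496 lower, 6 members (all but Adora2a, Penk and Ppp1r1b) and 17 other spiny neuron genes. limma gave 275 lower and 3 other spiny neuron genes on log2(FPKM + 1), 295 lower on log2(FPKM + 0.1), and 1141 lower, 3 members and 13 other spiny neuron genes on log2(TPM + 1). All 9 libraries in 1 fit gave 317 lower, 0 members and 0 other spiny neuron genes. Leaving out 1 library at a time gave 0 to 1738 higher, 0 to 1008 lower, 0 members and 0 to 3 other spiny neuron genes. In Laminaria-treated ICH against ICH, 1 gene was higher and 2 lower, and 1 was lower with no filter, with edgeR's own filter or with upper quartile scaling. DESeq2 gave 23 higher, 25 lower and 1 member, all 9 libraries in 1 fit gave 0 lower, and leaving out 1 library gave 0 to 1 higher and 0 lower. In Laminaria-treated ICH against sham, 2 genes were higher and 1 lower, and 0 in both directions with no filter, edgeR's filter, DESeq2 size factors or upper quartile scaling. DESeq2 gave 998 higher and 314 lower, limma 4 higher (FPKM + 1) and 1 higher (FPKM + 0.1), all 9 libraries in 1 fit 14 higher and 2 lower, counts divided by their step 2 lower, and leaving out 1 library 0 to 9 higher and 0 to 5 lower. With the replicate number as a block ICH against sham gave 696 higher, 143 lower, 0 members and 4 other spiny neuron genes, Laminaria-treated ICH against ICH 0 higher and 0 lower, and Laminaria-treated ICH against sham 293 higher and 9 lower. Libraries of the same number deviated together with correlations of -0.19 to 0.12, and those of different numbers with -0.23 to 0.22. With 3 libraries per group these values cannot settle whether the numbers pair the libraries. The members' median ratio to pan-neuronal genes was -0.61 to -0.17 in ICH against sham with 1 library left out, 0.036 to 0.38 in Laminaria-treated ICH against ICH and -0.24 to 0.059 in Laminaria-treated ICH against sham, where it was 0.051 without sham 2 and 0.059 without sham 3.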

Other observations

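Of 31 other spiny neuron genes, 2 had positive log2 fold changes in ICH against sham, Pde10a and Sp9 (0.11, edgeR adjusted p 0.624), both singled out after their values were seen. Pde10a, a phosphodiesterase of cyclic AMP and cyclic GMP in both spiny neuron classes, had 26.7, 29.6 and 38.1 FPKM in ICH libraries, against 15.9, 26.6 and 22.0 FPKM in sham libraries. The ICH libraries were all above the sham libraries, by as little as 26.7 against 26.6 FPKM. This was so for 3799 of all 16414 genes tested. The log2 fold change of Pde10a was 0.51, with an edgeR adjusted p of 0.163. In Laminaria-treated ICH Pde10a had 27.2, 16.6 and 13.1 FPKM, a log2 fold change of -0.73 against ICH with an edgeR adjusted p of 0.951.

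In Laminaria-treated ICH against ICH, DESeq2 called 23 genes higher and 25 lower of 16654 tested. Foxp1 was the one member among them, at a DESeq2 adjusted p of 0.00409 and a log2 fold change of 1.08. Its adjusted p was 0.505 to 1.0 when single libraries were left out in edgeR.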
